A study of Mus musculus with 6 samples.

Results

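The 10 genes described here encode enzymes that make serine, glycine, one-carbon units, proline and asparagine. They were chosen by gene symbol: Phgdh, Psat1, Psph, Shmt1, Shmt2, Mthfd2, Mthfd1l, Aldh1l2, Pycr1 and Asns. All 10 had 1 row each among the 23282 rows of the read count files. Their levels were compared in brown adipose tissue (BAT) of 3 wild-type (WT) and 3 Letmd1 KO male mice of the C57BL/6N strain at 5 weeks of age. Letmd1 encodes a mitochondrial protein of brown adipocytes, and the study asked what its loss does to BAT. The KO mice carried a knockout-first allele in the whole body, in which a lacZ and neomycin cassette sits in an intron of Letmd1. The line came from a single embryonic stem cell clone, and no group had the deletion in brown adipocytes alone. No treatment or temperature challenge is given for either genotype, and each library held the RNA of 1 mouse. RNA was read from the 3′ end of each transcript (QuantSeq), so a longer transcript gives no more reads than a shorter one.

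Serine is made from the glycolytic intermediate 3-phosphoglycerate in 3 steps, by PHGDH, PSAT1 and PSPH in that order. SHMT1 in the cytosol and SHMT2 in mitochondria split serine into glycine and a one-carbon unit carried by folate. In mitochondria MTHFD2, MTHFD1L and ALDH1L2 turn that unit into formate or carbon dioxide, and the cytosol uses the formate to build purines and thymidylate. PYCR1 carries out the last step of proline synthesis in mitochondria, and ASNS makes asparagine from aspartate and glutamine. Several of these genes are known targets of ATF4, the transcription factor of the integrated stress response, which is switched on by amino acid shortage and by mitochondrial faults.

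The promoters of 5 of these genes are shown because sites for such factors can lie close to the start of a gene. Each is the RefSeq window on GRCm38.p6 from 250 bases before to 50 bases after the annotated start, 5′ to 3′ on the gene's own strand, which is the minus strand for all 5. For Psat1 and Mthfd2 the RefSeq window lies inside the GENCODE gene bounds given below, not at their 5′ end. What is said of their windows holds for these RefSeq starts only. Capitals mark matches to the C/EBP-ATF composite site (TGATGNAA) or to the CCAAT box (CCAAT), searched on both strands, and no marked matches overlap. The first pair hold a composite site, and the other 3 genes had the largest changes among those with a window in the RefSeq table.
Asns, chr6:7693160-7693459: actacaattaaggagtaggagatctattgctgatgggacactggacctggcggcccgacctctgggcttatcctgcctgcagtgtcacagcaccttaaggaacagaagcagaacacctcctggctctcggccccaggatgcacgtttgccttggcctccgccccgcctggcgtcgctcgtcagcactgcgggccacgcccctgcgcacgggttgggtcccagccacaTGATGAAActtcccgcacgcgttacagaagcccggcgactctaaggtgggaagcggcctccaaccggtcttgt
Pycr1, chr11:120643699-120643998: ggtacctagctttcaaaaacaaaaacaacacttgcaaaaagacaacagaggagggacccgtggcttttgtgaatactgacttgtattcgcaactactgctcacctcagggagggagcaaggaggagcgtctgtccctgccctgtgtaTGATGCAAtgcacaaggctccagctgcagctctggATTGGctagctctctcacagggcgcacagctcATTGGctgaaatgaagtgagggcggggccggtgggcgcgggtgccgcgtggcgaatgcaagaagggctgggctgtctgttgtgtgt
Phgdh, chr3:98339920-98340219: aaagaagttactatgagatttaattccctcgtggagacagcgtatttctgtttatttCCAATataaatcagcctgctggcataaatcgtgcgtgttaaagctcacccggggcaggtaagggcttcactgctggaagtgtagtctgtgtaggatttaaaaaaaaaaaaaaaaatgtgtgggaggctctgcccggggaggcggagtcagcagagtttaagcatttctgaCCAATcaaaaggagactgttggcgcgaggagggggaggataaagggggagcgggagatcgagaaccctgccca
Psat1, chr19:15925010-15925309: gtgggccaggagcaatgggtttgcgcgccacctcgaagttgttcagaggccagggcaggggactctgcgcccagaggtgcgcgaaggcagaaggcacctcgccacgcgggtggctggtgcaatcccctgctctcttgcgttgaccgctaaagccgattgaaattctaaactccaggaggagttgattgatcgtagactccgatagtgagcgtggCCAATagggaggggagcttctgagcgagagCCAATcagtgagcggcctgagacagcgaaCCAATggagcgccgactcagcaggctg
Mthfd2, chr6:83317555-83317854: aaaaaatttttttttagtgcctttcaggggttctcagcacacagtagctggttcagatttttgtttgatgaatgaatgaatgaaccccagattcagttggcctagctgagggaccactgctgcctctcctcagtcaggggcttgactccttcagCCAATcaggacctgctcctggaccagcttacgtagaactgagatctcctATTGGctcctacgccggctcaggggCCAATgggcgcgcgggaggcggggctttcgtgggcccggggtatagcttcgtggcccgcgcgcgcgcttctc
The RefSeq table held windows for 9 of the 10 genes, all but Aldh1l2. The composite site was found in 2 of the 9 genes, as TGATGAAA at bases -23 to -16 before the start of Asns and as TGATGCAA at bases -103 to -96 before the start of Pycr1. Of 32817 windows of the same length in the table, 3.97% held it. The CCAAT box was found in 6 of the 9 genes against 37.4% of all windows. It occurred at 3 places each in the Mthfd2 and Psat1 windows shown, and not in a second annotated Psat1 window. Neither TGACGTCA, the cyclic AMP response element, nor CACGTG, an E-box, occurred in a window of these genes, against 1.79% and 7.15% of all windows. These letters describe the windows and are not evidence of binding.

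The 6 libraries held between 6669577 and 14574273 counts, and 12995 genes passed the filter on low counts and were tested. Letmd1 had between 5266 and 6490 counts in the WT mice, and 0, 0 and 1 in the KO mice, as the labels say. Levels are given as CPM, counts scaled to libraries of equal size, with edgeR's TMM factors. They are levels of mRNA, and these counts measure no protein. A count of 0 allows up to 3 counts, which is between 0.176 and 0.397 CPM in these libraries, for counting error only. The 12 brown adipocyte markers were present in every mouse, and their summed level was between 16262 and 17588 CPM in WT BAT and between 3373 and 5696 CPM in KO BAT. Of these, 9 were lower and 1, Fabp3, was higher. All 13 macrophage markers were higher (185 to 262 CPM summed in WT, 1522 to 3681 CPM in KO), as were all 6 fibroblast markers (2143 to 2843 against 5852 to 10160 CPM) and all 8 markers of dividing cells (9.0 to 13.2 against 90.9 to 145 CPM). Skeletal muscle markers summed to between 87.7 and 527 CPM in WT and between 376 and 1373 CPM in KO, with replicate 2 high among the WT mice, and 2 of 14 tested were called. Of the 8 endothelial markers 1 was higher and 3 were lower, and of the 4 hepatocyte markers 1 was tested and none was called. Beside these counts of markers, 23.7% of all genes tested were higher and 22.3% were lower. No marker of any list was at 0 in all mice of a genotype. The tissue is bulk, so a change in the cells present and a change of RNA per cell cannot be told apart. The part of these other cells in the results that follow was not tested. For some results a fit with muscle marker level as a covariate is given. That level, a mean log2 CPM, was -0.51, 4.15 and -0.51 in WT and 4.03, 3.81 and 5.63 in KO. It was high in every KO mouse and in WT replicate 2 only, so this fit cannot fully separate muscle from genotype.

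**Figure D1:**
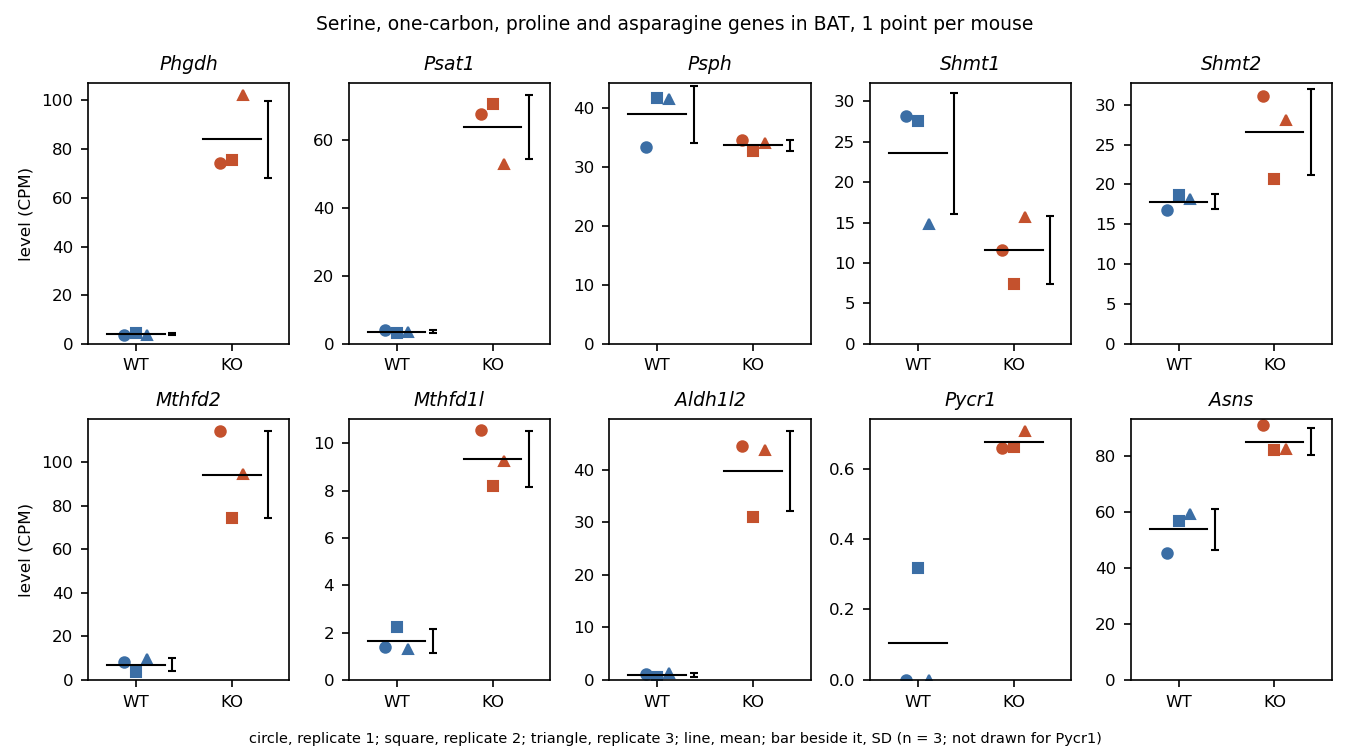
Level of each of the 10 genes in CPM (vertical axes from 0, each with its own scale) in 3 WT and 3 KO mice, 1 point per mouse. The mean is a line and the SD is a bar, which is not drawn for Pycr1. The mice of the genotypes are apart for Phgdh, Psat1, Shmt2, Mthfd2, Mthfd1l, Aldh1l2 and Asns, and also for Pycr1, whose axis ends under 1 CPM; they overlap for Psph and Shmt1.

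Most of these genes were higher in KO BAT. The largest changes were in the first steps of serine synthesis and in the mitochondrial steps to formate and carbon dioxide. Of the 9 genes that passed the filter, 7 were higher, 1 (Shmt1) was lower and 1 (Psph) was not called by edgeR's quasi-likelihood method, with a Benjamini-Hochberg adjusted p (over all genes tested) under 0.05 counted as a call. Of all genes tested, 23.7% were higher, 22.3% were lower and 46.0% were called in either direction. The mice of the genotypes did not overlap for 7 of the 9 genes, all higher in KO, against 57.3% of all genes. Asking also for a change of at least 2-fold left 5 genes, all higher, where 14.6% of all genes were that much higher. The median log2 fold change was 2.49 over the 9 genes and 0.033 over all genes tested. The genes were chosen with earlier results of these data known, so these comparisons with all genes are not a test of the list. The tenth gene, Pycr1, had too few counts for the filter. The summed level of all 10 genes was 142, 159 and 153 CPM in the WT mice and 480, 403 and 464 CPM in the KO mice. With library size alone as the scaling, the median of all genes rose by 0.42 on the log2 scale and turned the split of all calls from 2896 lower and 3082 higher to 1368 lower and 5899 higher. Under that scaling the same 7 genes were higher and Shmt1 was not called.

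Phgdh lies on chromosome 3 from 98313170 to 98339990, minus strand, in GENCODE vM21 on GRCm38. It encodes the dehydrogenase that commits 3-phosphoglycerate to serine. Its level was 3.56, 4.35 and 3.78 CPM in the WT mice and 74.2, 75.6 and 102 CPM in the KO mice. Every KO mouse was far above every WT mouse, and the spread within each genotype was small (3.90 ± 0.41 against 84.0 ± 15.8 CPM, SD, n = 3). The log2 fold change was 4.43 (SE 0.19, 95% confidence interval 4.0 to 4.85, edgeR adjusted p = 1.27e-06), a 21.5-fold difference, and 118th among all genes tested when ordered from the most positive change. The WT values rest on 29 to 41 counts per library. Of the 75-base words in the last 500 bases of its transcripts, 216 of 798 also occur in 5 other annotated genes, none of which has a row in the count files. The authors counted unique and multiple alignments, so reads from such copies could have been counted on Phgdh.

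Psat1, on chromosome 19 from 15904678 to 15947337, minus strand, encodes the aminotransferase of the second step. The WT mice had 3.99, 3.07 and 3.52 CPM, and the KO mice had 67.7, 70.5 and 52.9 CPM. As for Phgdh, the groups were well apart, with means of 3.53 ± 0.46 and 63.7 ± 9.45 CPM (SD, n = 3). This was a log2 fold change of 4.17 (SE 0.19, interval 3.75 to 4.58, adjusted p = 1.46e-06), or 18.0-fold. KO replicate 3 was the highest of the KO mice for Phgdh and the lowest for Psat1.

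Psph, on chromosome 5 from 129765558 to 129787449, minus strand, encodes the phosphatase of the last step. Its level was 33.4, 41.8 and 41.6 CPM in WT and 34.5, 32.7 and 34.0 CPM in KO. WT replicate 1 lay among the KO mice, so the groups overlapped. On the log2 scale the change was -0.21 (interval -0.50 to 0.093, adjusted p = 0.235) and 0.21 (adjusted p = 0.216) when libraries were scaled by size alone. The interval holds no increase as large as that of Phgdh or Psat1. The Psph gene overlaps Cct6a on the other strand, away from its last 1000 bases.

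The SHMT pair split. Shmt1, the cytosolic enzyme on chromosome 11 from 60788104 to 60811718, minus strand, had 28.2, 27.6 and 14.9 CPM in the WT mice and 11.6, 7.41 and 15.8 CPM in the KO mice. WT replicate 3 was below KO replicate 3, so the groups overlapped even though the means were 23.6 ± 7.54 and 11.6 ± 4.18 CPM (SD, n = 3). The log2 fold change was -1.0 (SE 0.31, interval -1.69 to -0.31, adjusted p = 0.0249). The call rests on a narrow margin: it was lost without WT replicate 1 (-0.86, adjusted p = 0.0835), WT replicate 2 (-0.89, 0.0767), KO replicate 1 (-0.99, 0.0747) or KO replicate 2 (-0.77, 0.0566), and with scaling by library size alone (-0.58, 0.142). The direction was the same in all 15 alternative settings. In its last 500 transcript bases 110 of 1035 words are shared with Smcr8, a gene on the opposite strand. The sources used here do not state whether strand was used in counting. Smcr8 was at 21.3, 25.0 and 16.2 CPM in WT and 18.9, 19.5 and 18.6 CPM in KO and was not called (log2 fold change -0.14, adjusted p = 0.554).

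Shmt2, the mitochondrial enzyme on chromosome 10 from 127517123 to 127522444, minus strand, moved the other way. It was at 16.8, 18.7 and 18.1 CPM in WT and at 31.1, 20.6 and 28.1 CPM in KO. All KO mice were above all WT mice, but KO replicate 2 by little. Its log2 fold change was 0.58 (SE 0.17, interval 0.19 to 0.97, adjusted p = 0.0217), or 1.49-fold. This call too was lost without WT replicate 1 (0.53, adjusted p = 0.0719), WT replicate 2 (0.59, 0.0563), KO replicate 1 (0.45, 0.0911) or KO replicate 3 (0.54, 0.0758), after quantile normalization with limma (0.47, 0.0697) and with muscle marker level as a covariate (0.47, 0.224). Its last 1000 bases overlap Ndufa4l2 on the opposite strand, with which its transcript ends share no word. Ndufa4l2 was between 7.17 and 8.09 CPM in WT and between 7.68 and 8.59 CPM in KO, and was not called (log2 fold change 0.068, adjusted p = 0.806).

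The mRNA of all 3 listed enzymes that turn the one-carbon unit into formate or carbon dioxide in mitochondria was strongly higher. Mthfd2 encodes the dehydrogenase and cyclohydrolase that follows SHMT2, and is known for high levels in embryos and in dividing cells and low levels in most adult tissues. It lies on chromosome 6 from 83305691 to 83325908, minus strand. Its level was 8.19, 3.50 and 9.52 CPM in WT and 114, 74.2 and 94.4 CPM in KO. No KO mouse came near a WT mouse, and replicate 2 was the lowest of both genotypes. Its log2 fold change was 3.75 (SE 0.32, interval 3.04 to 4.46, adjusted p = 2.51e-05), a 13.5-fold difference. The markers of dividing cells, given above, were higher in the same KO mice, and their part in the Mthfd2 result was not tested.

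Mthfd1l encodes the mitochondrial ligase that releases formate, and lies on chromosome 10 from 3973118 to 4167081, plus strand. The WT mice had 1.40, 2.23 and 1.30 CPM, on 10 to 21 counts, and the KO mice had 10.5, 8.21 and 9.23 CPM. The groups were apart, with means of 1.64 ± 0.51 and 9.33 ± 1.18 CPM (SD, n = 3). This gave a log2 fold change of 2.49 (SE 0.30, interval 1.81 to 3.16, adjusted p = 0.000185), or 5.60-fold.

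Aldh1l2 had the largest fold change of the list. It encodes the mitochondrial dehydrogenase that oxidizes 10-formyltetrahydrofolate to carbon dioxide with production of NADPH, and lies on chromosome 10 from 83487450 to 83534140, minus strand. Its level was 1.08, 0.53 and 1.30 CPM in WT, on 5 to 10 counts per library, and 44.5, 31.1 and 43.8 CPM in KO, on 235 to 745 counts. Nearly all of its reads were thus from KO mice. On the log2 scale the change was 5.37 (SE 0.29, interval 4.72 to 6.02, adjusted p = 3.31e-06), a 41.4-fold difference and the 65th most positive of all genes tested. Of the words in its last 500 transcript bases, 426 of 852 are shared with D10Wsu102e, which is on the opposite strand, and without strand the reads of the pair cannot be told apart. D10Wsu102e was also higher, at 16.4, 13.0 and 13.0 CPM in WT and 22.2, 20.1 and 21.6 CPM in KO (log2 fold change 0.59, adjusted p = 0.0131). Its means differed by 7.16 CPM, and those of Aldh1l2 by 38.8 CPM.

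Pycr1, on chromosome 11 from 120635712 to 120643769, minus strand, was barely detected in BAT. It had 0, 3 and 0 counts in the WT mice and 6, 5 and 12 counts in the KO mice, or 0, 0.32 and 0 against 0.66, 0.66 and 0.71 CPM. Every KO mouse was above every WT mouse, but WT levels were at or under the floor of 3 counts. The ratio of KO to WT from the summed counts, 23 and 3, was 6.01 (95% interval 1.82 to 31.3, counting error only). The gene was outside the test, and in a fit without the filter, over 17694 genes, its log2 fold change was 2.47 with an edgeR adjusted p of 0.114.

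Asns encodes asparagine synthetase and was higher in KO BAT. It lies on chromosome 6 from 7675169 to 7693254, minus strand. Its level was 45.4, 56.8 and 59.3 CPM in WT and 91.1, 82.3 and 82.6 CPM in KO. The groups were apart, and the spread was small in both (53.8 ± 7.43 and 85.3 ± 5.00 CPM, SD, n = 3). The log2 fold change was 0.66 (SE 0.13, interval 0.38 to 0.95, adjusted p = 0.00249), or 1.59-fold. The interval of Asns lay wholly below those of the 5 genes that rose by at least 2-fold. With muscle marker level as a covariate the change was 0.60 with an adjusted p of 0.0537. Its promoter held the composite site shown above, and so did that of Pycr1, and the windows of Phgdh, Psat1 and Mthfd2 held none.

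**Figure D2:**
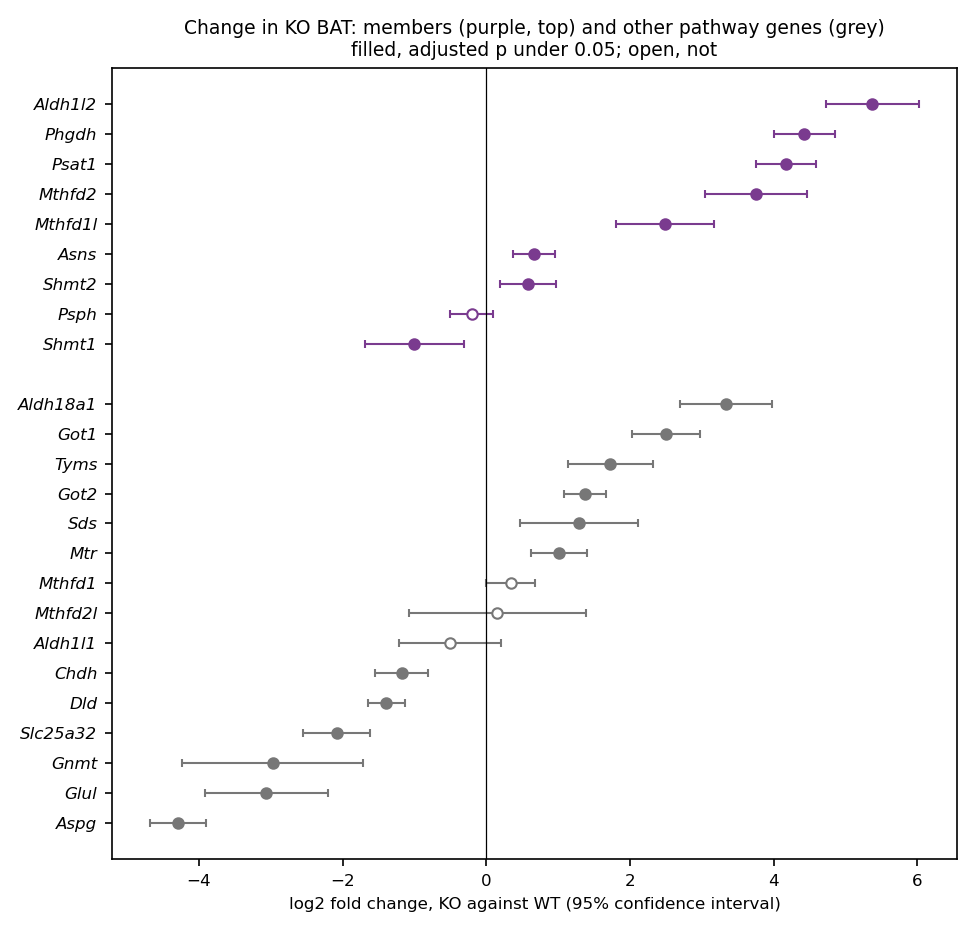
Log2 fold change of KO against WT (horizontal axis) with its 95% confidence interval for the 9 tested genes of the list (purple, top) and 15 other genes of the same pathways (grey), filled where the edgeR adjusted p was under 0.05. Aldh1l2, Phgdh, Psat1 and Mthfd2 of the list lie above 3, as does Aldh18a1 (3.34) of the other genes. Asns and Shmt2 lie below 1, and Aspg at -4.29 is the lowest.

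Ratios of 2 genes within a mouse do not depend on how the libraries were scaled. In each of the 5 ratios given here, fixed by pairing a gene of the list with its partner in the cytosol or its closest relative, the 3 KO mice were above the 3 WT mice. The counts of Shmt2 relative to Shmt1 were 0.60, 0.68 and 1.22 in WT and 2.66, 2.77 and 1.78 in KO, a mean difference of 1.58 on the log2 scale. The ratio of the mRNA of the mitochondrial enzyme to that of the cytosolic enzyme was thus higher in each KO mouse than in any WT mouse. Mthfd2 relative to Mthfd1, the cytosolic enzyme of the same reactions, was 0.54, 0.20 and 0.49 in WT and 4.91, 3.43 and 4.30 in KO, a log2 difference of 3.48. Relative to Mthfd2l, its mitochondrial paralogue, Mthfd2 differed by 3.67, and Mthfd1l relative to Mthfd1 differed by 2.15. The largest of the 5 was Aldh1l2 relative to Aldh1l1, its cytosolic paralogue, at 0.093, 0.030 and 0.081 in WT and 5.75, 1.75 and 4.83 in KO, a log2 difference of 5.90. With 3 mice against 3, a two-sided exact permutation test cannot go below p = 0.1, which was the value of each of the 5 (0.1 after adjustment over the 6 ratios computed).

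The 3 partner genes outside the list were not called in the reported fit. Mthfd1 was between 15.1 and 19.7 CPM in WT and between 21.6 and 23.2 CPM in KO (log2 fold change 0.34, adjusted p = 0.0939). Mthfd2l was between 1.04 and 2.86 CPM in WT and between 0.94 and 2.86 CPM in KO (0.15, adjusted p = 0.841), and Aldh1l1 was between 12.2 and 19.2 against 7.69 and 17.7 CPM (-0.50, adjusted p = 0.223). Mthfd1 was called with library size alone (0.76, adjusted p = 0.0026), and Aldh1l1 without KO replicate 2 (-0.93, adjusted p = 0.0147). After the values were seen, 2 further ratios were formed. Phgdh relative to Psph was 0.108, 0.105 and 0.092 in WT and 2.15, 2.31 and 3.01 in KO (log2 difference 4.60). Asns relative to Aspg, which encodes an asparaginase, was 0.25, 0.37 and 0.31 in WT and 9.27, 7.93 and 11.5 in KO (log2 difference 4.94).

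**Figure D3:**
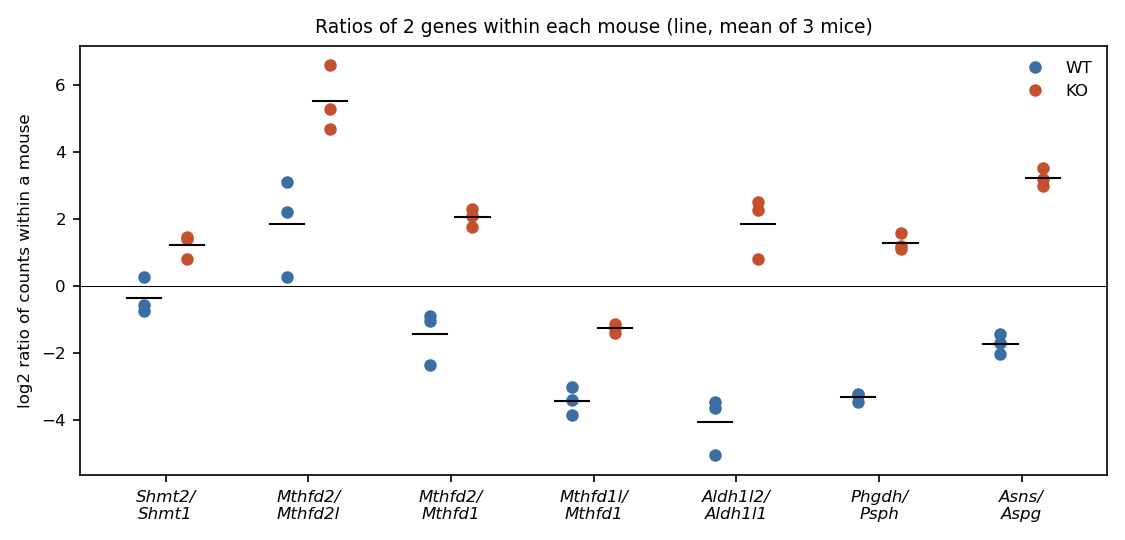
Log2 ratio of the counts of 2 genes (vertical axis) in each of 3 WT and 3 KO mice, with the mean as a line, for 5 fixed ratios and for Phgdh/Psph and Asns/Aspg, which were added after the values were seen. In all 7 the KO points lie above the WT points.

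Around these 10 genes, the rest of the pathways did not shift in 1 direction. Of 51 further genes of folate, serine, glycine, methionine, proline, asparagine and glutamine metabolism, 43 were tested, 12 were higher, 12 were lower and 19 were not called, with a median log2 fold change of -0.013. Scaling by library size alone turned this to 22 higher and 7 lower. Ftcd, Dmgdh, Agxt and Agxt2 had no counts in any mouse. The higher share, 12 of 43, lies near the 23.7% of all genes, and so does the lower share near the 22.3%.

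Of the 11 tested genes of cytosolic folate use, 5 were higher and none was lower, beside 23.7% and 22.3% of all genes tested. Tyms, thymidylate synthase, was between 2.70 and 3.18 CPM in WT and between 8.60 and 12.5 CPM in KO (log2 fold change 1.73, adjusted p = 0.000671). Mtr, methionine synthase, was between 10.7 and 13.2 against 19.5 and 26.5 CPM (1.01, adjusted p = 0.00143). Fpgs and Atic, named after their values were seen, were also among the 5. Tyms is itself a gene of dividing cells, whose markers were higher in the same mice. The part of dividing cells in the Tyms result was not tested.

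Of the 6 tested genes among the other mitochondrial folate and glycine cleavage genes, none was higher and 4 were lower, beside the same 23.7% and 22.3%. The difference between these groups of genes was not tested. Slc25a32, the carrier that brings folate into mitochondria, was at 19.5, 20.9 and 21.5 CPM in WT and 4.84, 6.09 and 3.94 CPM in KO (log2 fold change -2.08, adjusted p = 5.80e-05). Every KO mouse was thus far below the WT mice for the carrier, while the folate enzymes Mthfd2, Mthfd1l and Aldh1l2 were higher in the same mice. Dld, a subunit shared by the glycine cleavage system and the 2-oxoacid dehydrogenases, fell from between 610 and 657 CPM to between 215 and 259 CPM (-1.39, adjusted p = 2.42e-05). The other lower pair, named after their values were seen, were Gcsh and Sardh.

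Of the 6 other proline genes 3 were higher and 2 were lower, beside 23.7% and 22.3% of all genes tested. Aldh18a1, which makes a precursor of proline from glutamate, was at 1.19, 1.48 and 1.70 CPM in WT and at 16.6, 10.9 and 16.5 CPM in KO. With no overlap and a log2 fold change of 3.34 (interval 2.69 to 3.98, adjusted p = 2.75e-05), it had the most positive change of the 43. Of 5 other serine and glycine genes 1 was higher and 2 were lower, beside the same 23.7% and 22.3%. The higher one was Sds, a serine dehydratase, at low levels (1.06 to 1.83 against 3.18 to 3.59 CPM, log2 fold change 1.29, adjusted p = 0.0172). The call of Sds was lost after quantile normalization with limma (0.65, adjusted p = 0.126), with the muscle covariate (1.6, 0.0801), and without WT replicate 2 (1.11, 0.0667), KO replicate 1 (1.29, 0.0517) or KO replicate 3 (1.24, 0.0613).

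Of 8 genes that make or use aspartate, asparagine and glutamine, 3 were higher and 2 lower, beside 23.7% and 22.3% of all genes. The genes of the aspartate aminotransferases were higher. Got1, the cytosolic one, rose from between 24.0 and 29.7 CPM to between 109 and 194 CPM (log2 fold change 2.50, adjusted p = 2.46e-05). Got2, the mitochondrial one, rose from between 44.2 and 52.4 to between 104 and 135 CPM (1.37, adjusted p = 4.87e-05). Aspg was at 183, 153 and 190 CPM in WT and at 9.78, 10.3 and 7.18 CPM in KO, a 19.6-fold difference (-4.29, interval -4.68 to -3.90, adjusted p = 9.02e-07). The mRNA of Asns, which encodes the enzyme that makes asparagine, was thus higher and that of Aspg lower in the same mice. Glul, glutamine synthetase, was between 4125 and 5144 CPM in WT and at 325, 932 and 369 CPM in KO (-3.06, adjusted p = 0.000217).

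Of 7 tested genes of methionine and cysteine metabolism, none was higher and 2 were lower, beside 23.7% and 22.3% of all genes. Gnmt, glycine N-methyltransferase, was between 3.34 and 9.91 CPM in WT and between 0.47 and 1.10 CPM in KO, where it had 5 to 10 counts (log2 fold change -2.97, adjusted p = 0.00225). Chdh, choline dehydrogenase, fell from between 46.4 and 63.9 to between 20.3 and 26.9 CPM (-1.18, adjusted p = 0.000408). Both enzymes handle methyl groups, one by transfer to glycine and the other on the way from choline to betaine.

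All 4 transcription factors listed for the integrated stress response were higher in KO BAT. Atf4 was at 323, 228 and 164 CPM in WT and at 647, 561 and 746 CPM in KO (log2 fold change 1.45, adjusted p = 0.000803). ATF4 is mainly controlled at translation, which these counts do not measure. Atf5 was between 177 and 220 against 622 and 802 CPM (1.83, adjusted p = 1.96e-05). Ddit3, which encodes CHOP, was between 71.3 and 88.0 against 482 and 675 CPM (2.80, adjusted p = 4.24e-06). Atf3 was between 1.17 and 2.22 against 49.6 and 55.7 CPM (4.93, adjusted p = 1.27e-06). No mouse of one genotype overlapped the other for any of the 4. Of all genes tested, 57.3% showed no overlap and 23.7% were higher. These factors were higher in the same KO mice as the enzymes, and their part in the enzymes' levels was not tested.

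Among the 9 tested genes of the list, the profiles over the 6 mice were most alike for Shmt2 and Asns (Euclidean distance 0.43 between log2 CPM profiles, each centred on its own mean) and for Phgdh and Psat1 (0.87). Outside the list, the genes nearest to Phgdh were Acox2 (0.29), Kcnk12 (0.45) and Aldh1b1 (0.49). Acox2, an acyl-CoA oxidase of peroxisomes, was between 0.97 and 1.48 CPM in WT and between 24.1 and 33.5 CPM in KO, while Kcnk12 and Aldh1b1 had no counts in any WT mouse and reached 6.41 and 5.23 CPM in KO. Nearest to Mthfd2 were Soat2 (0.62), Cenpe (0.77) and Iqgap3 (0.81). Cenpe, a kinesin of dividing cells, was between 0.53 and 1.83 against 11.3 and 18.0 CPM. Nearest to Asns were Bbc3 (0.080), Rpa2 (0.10) and Mrto4 (0.10), all of them changed by a log2 value between 0.60 and 0.69. Distances over 6 mice in 2 genotypes depend on the size of the change as log2 CPM shows it. For Kcnk12 and Aldh1b1, at 0 in WT, that size is set by the prior count of 2. Soat2 (0.11, 0 and 0.13 CPM) and Iqgap3 (0.32, 0 and 0.26 CPM) were also close to 0 in WT. Their log2 fold changes in the fit, 5.32 and 4.20, were above the 3.75 of Mthfd2, and the prior count also bears on their distances.

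**Figure D4:**
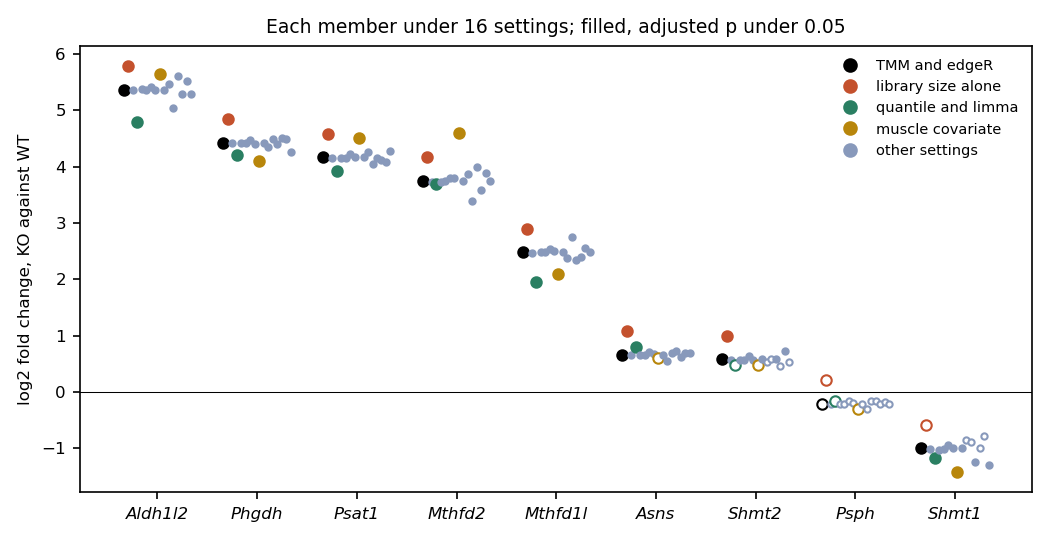
Log2 fold change of each tested gene of the list (vertical axis) in the reported fit and in 15 alternative settings, filled where the adjusted p was under 0.05. Aldh1l2, Phgdh, Psat1, Mthfd2 and Mthfd1l are filled in every setting; Asns is open in 1, and Shmt2 and Shmt1 are open in several.

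The 5 largest increases were called in every alternative setting. Over 15 alternatives, among them other scalings, DESeq2, quantile normalization with limma, a muscle covariate and leaving out each mouse, the log2 fold change ranged from 4.10 to 4.85 for Phgdh, from 3.93 to 4.59 for Psat1, from 3.40 to 4.60 for Mthfd2, from 1.95 to 2.90 for Mthfd1l and from 4.79 to 5.79 for Aldh1l2. Asns kept its call in 14 of 15, Shmt1 in 10 and Shmt2 in 9. Relative to the median of all genes, scaling by library size alone gave -1.03 for Shmt1 and -0.24 for Psph. With TMM scaling the values were -1.03 and -0.24. A change of scaling moves all genes by nearly the same amount, so this match follows from the method and is no result about these genes.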

How the data were processed

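BAT RNA of 3 WT and 3 Letmd1 KO mice was read as QuantSeq 3′ libraries in single-end runs of 75 bases. The submitters' processing notes name Bowtie2, bedtools and mm10. The authors counted unique and multiple alignments per gene and deposited raw whole-number counts, 1 file per mouse. The annotation and the use of strand are not given in the sources used here. Groups were taken from the genotype labels. Replicates are separate mice, and litters or cages are not given. Every pair of mice within a genotype differed by more than sampling noise.

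The counts were fitted with edgeR 4.0.16 under R 4.3.3: TMM scaling, the default filter (minimum count 10, minimum total 15), the quasi-likelihood test over all 12995 tested genes, Benjamini-Hochberg adjustment and a threshold of 0.05. SE is the log2 fold change divided by the root of F. Log2 CPM used a prior count of 2, and ratios within a mouse used log2 of counts plus 0.5. Intervals and floors on counts cover counting error only. The steps were tested on simulated counts. Alternatives were scaling by library size alone or by DESeq2 size factors, DESeq2 1.42.0, quantile normalization (the method the paper names) with limma 3.58.1, no filter or one at a mean of 50 counts, a replicate block, a muscle marker covariate, leaving out Rn45s, stricter thresholds, 1 or 5 counts added to ratios, and leaving out each mouse.

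The 10 genes and all lists were chosen with earlier results of these data known. Named genes are the 10, the 6 most positive and 6 most negative called genes of the pathway list, the genes in ratios, 4 stress response factors, the 3 genes nearest to Phgdh, Mthfd2 and Asns, and Letmd1; genes that overlap a listed gene were added because of that overlap. Positions came from GENCODE vM21 and promoters from RefSeq on GRCm38.p6, the build of mm10. Promoters were searched for 4 motifs. No protein sequence was used here, and some genes and 1 ratio that the rule names are not reported here.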

Additional observations from a re-analysis of the deposited data

How the results depend on the processing

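The number of the 9 tested genes called was 8 and lay between 6 and 8 with single mice left out. Among all genes, between 4842 and 5868 were then called, of 13064 to 13416 tested. Asking for at least 2-fold left 5 of the 9, all higher, beside 14.6% of all genes that were at least 2-fold higher. Over all genes, the muscle covariate lowered the count of calls from 5978 to 3592, with 6 of the 9 still called; the cause was not tested. The log2 fold change of Psph reversed to 0.21 with library size alone, and that of Mthfd2l, which was not called, to -0.53 with quantile normalization and -0.13 with the muscle covariate, and it ranged from -0.13 to 0.58 when single mice were left out. With the replicate block, 8 of the 9 genes and 5599 genes in all were called. The labels do not say whether the replicate numbers pair the mice. Deviations from the group means of same-numbered mice correlated at 0.069, -0.11 and -0.087 across genes. With so few mice, these values cannot show whether same-numbered mice shared a litter, cage or preparation. The pathway genes called numbered 24, and between 18 and 29 under the alternatives, where the 29 with library size alone were 22 higher and 7 lower. Low counts limit Pycr1 most, then the WT values of Aldh1l2 and Mthfd1l.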
